A study of Aethionema arabicum with 12 samples.

Results

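The 10 genes described here carry stored seed oil into sugar: the oil lipase SDP1 (Arabidopsis locus AT5G04040), the peroxisomal transporter PXA1 (AT4G39850), the acyl-CoA synthetases LACS6 (AT3G05970) and LACS7 (AT5G27600), the β-oxidation enzymes ACX2 (AT5G65110), MFP2 (AT3G06860) and KAT2 (AT2G33150), the glyoxylate cycle enzymes isocitrate lyase (ICL, AT3G21720) and malate synthase (MLS, AT5G03860), and phosphoenolpyruvate carboxykinase 1 (PCK1, AT4G37870). They were chosen by locus, as every gene model of Aethionema arabicum that the deposited table matches to one of these 10 Arabidopsis thaliana loci, which gave 11 models of the 23594 in the table. LACS7 matched 2 models. One of these, AA40G00099, had 0 reads in every CYP library and between 0 and 2 reads in each TUR library, and was not tested. The other 10 models, 1 per locus, were among the 15671 that reached 1 CPM (a count scaled by its library total) in at least 3 libraries. LACS7 below means the model AA40G00101.

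RNA came from whole imbibed seeds of A. arabicum, an annual of the crucifer family, taken intact and before germination after 23 h of treatment. The groups were CYP seeds (accession Cyprus) kept under white light at 100 µmol m-2 s-1, CYP seeds in darkness, TUR seeds (accession Turkish ES1020) in the same light, and TUR seeds in darkness, with 3 libraries each. As background, white light holds back the germination of CYP seeds, while TUR seeds germinate in it. The labels do not say whether the 3 libraries of a group came from separate seed batches, so p-values measure only the spread between these samples, which may be technical.

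In crucifer seeds the reserve is mostly triacylglycerol in oil bodies of the embryo and of the thin endosperm. Lipases release fatty acids, which enter the peroxisome, are activated with coenzyme A and are shortened by β-oxidation to acetyl-CoA. The glyoxylate cycle, through isocitrate lyase and malate synthase, joins acetyl-CoA into 4-carbon acids without losing carbon as CO2, and PCK1 opens the way from those acids to sugar. In Arabidopsis this pathway feeds the seedling after germination until it photosynthesizes.

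The libraries held 7099578 to 13953792 counts, and a floor of 3 counts corresponds to 0.215 to 0.423 CPM. CYP dark replicate 3 stood apart: over the tested models it correlated at 0.980 and 0.981 with the remaining CYP dark libraries, which correlated at 0.990 with each other. Without it the number of the 10 genes called stayed the same in each comparison that uses it. The tissue label was checked on seed storage genes: OLEO1 (AA131G00012), an oil body coat protein, averaged 2317 CPM in CYP light, 1310 in CYP dark, 1130 in TUR light and 820.1 in TUR dark. OLEO1 was called higher in light in CYP (log2 fold change 0.82, adjusted p = 0.00366) and not in TUR (0.46, adjusted p = 0.100), and its part in the results below was not tested. The summed level of the 5 models matched to seed identity loci was 6100.0 to 6991 CPM in CYP light, 4257 to 6829 in CYP dark, 2172 to 3936 in TUR light and 1737 to 3191 in TUR dark. Of these, AA306G00002 had 0 reads in all libraries and AA306G00001 had 1 read. Levels are CPM scaled with the TMM method. Differences are log2 fold changes with standard errors (SE), and genes were called at a Benjamini-Hochberg adjusted p under 0.05 in edgeR's quasi-likelihood test over all models tested.

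ICL (AA26G00814), which splits isocitrate and so opens the glyoxylate cycle, had more reads than any other model in 10 of the 12 libraries. MLS (AA19G00204), which joins glyoxylate with acetyl-CoA, came first in 1 further library, TUR light replicate 2. The 11 models together took 1.69 to 1.91% of all counts in CYP light, 2.11 to 2.23% in CYP dark, 1.55 to 1.71% in TUR light and 1.84 to 1.98% in TUR dark. The shares of the light libraries lay below those of the dark libraries in both accessions. ICL alone took 0.551 to 0.642% in CYP light, 0.848 to 0.930% in CYP dark, 0.479 to 0.602% in TUR light and 0.795 to 0.881% in TUR dark. MLS went the other way in TUR, with 0.522 to 0.573% in light and 0.426 to 0.519% in darkness. The sum follows its most counted models, so it does not describe the 10 genes as a set.

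Scaled to gene length, the 10 genes spanned a wide range. ICL had group means of 2776 to 4830 CPM per kb and MLS 1155 to 1369 CPM per kb. PCK1 (AA30G00293) followed with 453.8 to 1068 CPM per kb, KAT2 (AA32G00461) with 410.2 to 496 and MFP2 (AA29G00076) with 347 to 449. Means per kb were lower for ACX2 (AA4G00241), at 87.5 to 216, and for LACS6 (AA10G00018), at 54.9 to 61.9. SDP1 (AA19G00193) had 30.0 to 44.0, PXA1 (AA30G00354) 21.7 to 27.2 and LACS7 5.91 to 13.3 CPM per kb. The ranges of PCK1 and KAT2 overlapped, as did those of KAT2 and MFP2, and no other neighbours in this order overlapped. Among all models, mean CPM per kb put ICL at rank 13 in CYP light, 5 in CYP dark, 10 in TUR light and 5 in TUR dark. MLS ranked 38, 37, 40 and 49 in the same groups, so neither came first on this scale. The lengths are those of the deposited table, and the sources used here do not state whether they include introns, so the order between genes is approximate.

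**Figure D1:**
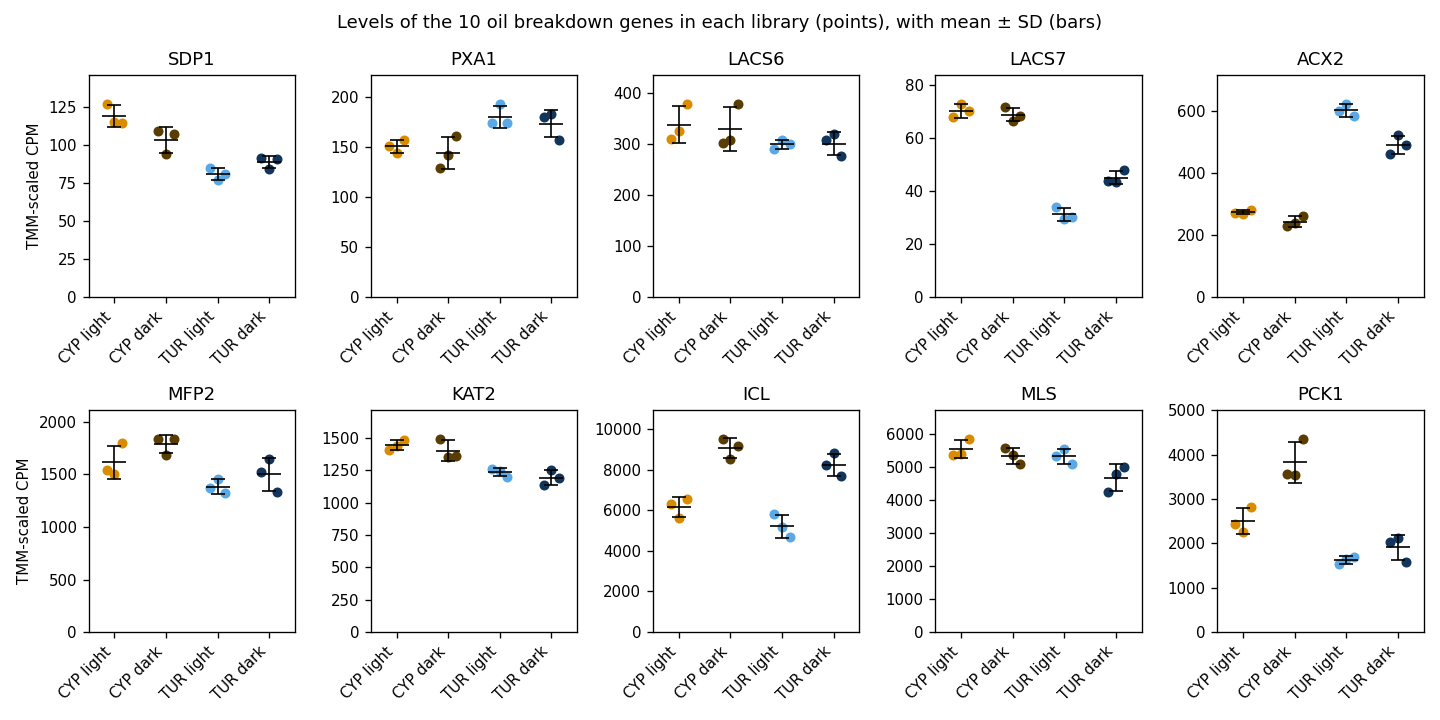
TMM-scaled CPM (vertical axes, each starting at 0) of the 10 genes, with 1 point per library, 4 groups of 3 libraries along the horizontal axes, and the mean ± SD as bars. ICL is lower in light in both accessions, PCK1 is highest in CYP dark, and ACX2 is lower in CYP than in TUR.

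In CYP seeds ICL and PCK1 were lower in light than in darkness, and the other 8 genes were not called. ICL had 6328, 5594 and 6542 CPM in CYP light, against 9522, 8534 and 9143 CPM in CYP dark. The groups did not overlap, and the log2 fold change was -0.56 (SE 0.11, adjusted p = 0.000733), to 0.679 of the dark level. PCK1, which turns oxaloacetate into phosphoenolpyruvate for sugar synthesis, had 2443, 2259 and 2827 CPM in CYP light, against 3567, 3550 and 4365 CPM in CYP dark. Again every light library lay below every dark library, with a log2 fold change of -0.61 (SE 0.12, adjusted p = 0.00115). Without CYP dark replicate 3, which held the highest PCK1 level, the log2 fold change was -0.50 (adjusted p = 0.00178).

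Thus 2 of 10 genes were called in CYP light, both lower, where 25.0% of all models tested were called, 10.6% higher and 14.3% lower. The median log2 fold change of the 10 genes was 0.040, against -0.0061 over all models tested. MLS averaged 5536 ± 273 CPM in CYP light and 5336 ± 240 CPM in CYP dark (SD, n = 3 each), a log2 fold change of 0.053 with a 95% interval of -0.15 to 0.25. For LACS7 the interval was -0.16 to 0.21 and for KAT2 -0.14 to 0.22. SDP1, the lipase that starts the breakdown, had 127, 115 and 115 CPM in CYP light, against 109, 94.0 and 107 CPM in CYP dark. Its groups were apart, as were those of 4 of the 10 genes and of 38.3% of all models tested, but the log2 fold change of 0.20 (SE 0.091) was not called (adjusted p = 0.114).

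In TUR seeds ICL and LACS7 were lower and ACX2 was higher in light than in darkness. ICL had 5804, 5156 and 4672 CPM in TUR light, against 8212, 8793 and 7672 CPM in TUR dark. The groups were apart, with a log2 fold change of -0.66 (SE 0.11, adjusted p = 0.000229). LACS7, which activates fatty acids inside the peroxisome together with LACS6, had 34.0, 29.4 and 30.3 CPM in TUR light, against 43.7, 43.6 and 48.1 CPM in TUR dark. The light libraries all lay lower, with a log2 fold change of -0.53 (SE 0.092, adjusted p = 0.00051). ACX2, an acyl-CoA oxidase for long-chain substrates, had 603, 625 and 584 CPM in TUR light, against 463, 522 and 492 CPM in TUR dark. All light libraries lay higher, with a log2 fold change of 0.29 (SE 0.088, adjusted p = 0.0257). That call was lost without any 1 of 5 of the 6 TUR libraries (all except TUR dark replicate 2), with an adjusted p of 0.0635 to 0.109.

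In TUR, 3 of 10 genes were called, 1 higher and 2 lower, where 18.4% of all models tested were called, 9.17% higher and 9.22% lower. The median log2 fold change was -0.062, against 0.00042 over all models. MLS had 5337, 5540 and 5088 CPM in TUR light, against 4231, 4783 and 5007 CPM in TUR dark. Its groups were apart, as were those of 4 of the 10 genes and of 37.2% of all models tested, and the log2 fold change of 0.19 (SE 0.096) was not called (adjusted p = 0.192). PCK1 had 1539, 1642 and 1697 CPM in TUR light, against 2031, 2113 and 1592 CPM in TUR dark. These groups overlapped through TUR dark replicate 3, and the log2 fold change of -0.23 (SE 0.12) was not called (adjusted p = 0.201). Without that library it was -0.37 (adjusted p = 0.0357). This was 1 of 6 cases of leaving out a library, and the other 5 did not call PCK1. Of 12 alternative settings that kept all TUR libraries, 0 called it.

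**Figure D2:**
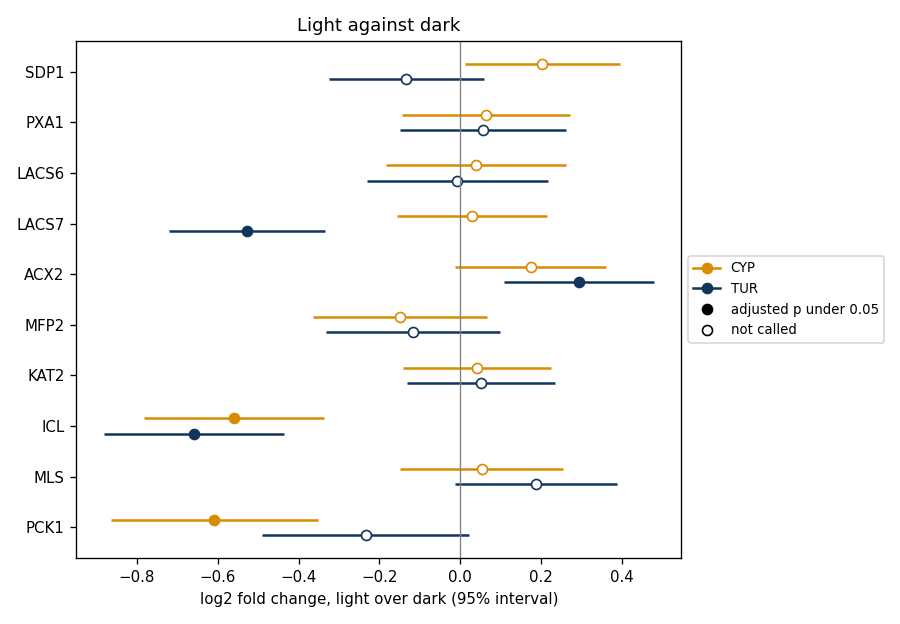
Log2 fold change of light over dark (horizontal axis, 95% interval as a line) for each of the 10 genes in CYP and TUR, with filled points for adjusted p under 0.05. The ICL points lie left of 0 in both accessions, at -0.56 in CYP and -0.66 in TUR, while the LACS7 point lies at 0.029 in CYP and -0.53 in TUR.

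Markers of seed tissues were measured beside these falls, since RNA came from whole seeds, in which fewer cells of a type and less RNA per cell cannot be told apart. The endosperm list had 3 matched models of 4 loci, of which ZOU (AA2G00103) had 0 reads in every library. The summed level of the list was 191 to 218 CPM in CYP light and 292 to 300 CPM in CYP dark, and 168 to 200 CPM in TUR light and 237 to 248 CPM in TUR dark. NCED6 (AA78G00012), of abscisic acid synthesis, and MAN7 (AA8G00079), an endo-mannanase, were called lower in light in both accessions. The embryo list, with 5 matched models and none at 0, summed to 136 to 145 CPM in CYP light and 194 to 259 CPM in CYP dark, and to 152 to 170 CPM in TUR light and 173 to 225 CPM in TUR dark. Of its 5 models 3 fell in CYP light and 1 in TUR light, and PDF1 (AA21G00071), an epidermal gene, had the largest fall in both, with means of 9.09 CPM in CYP light and 57.8 in CYP dark, and 18.1 in TUR light and 50.4 in TUR dark. ATML1 (AA57G00375), the most counted model of the list in light, was not called (0.082 in CYP and 0.18 in TUR). The seed coat list of 4 models, in which TT12 (AA61G00308) and BAN (AA53G00568) were at or near 0, summed to 33.0 to 35.2 CPM in CYP light and 20.3 to 22.2 CPM in CYP dark, and to 44.4 to 48.0 CPM in TUR light and 33.6 to 47.1 CPM in TUR dark. The endosperm sum follows MAN7, with means of 192 CPM in CYP light, 276 in CYP dark, 181 in TUR light and 231 in TUR dark. In TUR, PDF1 was the only embryo model called. These sums therefore do not describe their lists as sets. The endosperm and embryo sums were lower in light together with ICL, and their part in that result was not tested.

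The ratio of 2 genes within a library does not depend on how libraries are scaled. The count of ICL divided by that of MLS was 1.18, 1.04 and 1.12 in CYP light, against 1.71, 1.60 and 1.79 in CYP dark. In TUR it was 1.09, 0.931 and 0.918 in light, against 1.94, 1.84 and 1.53 in darkness. In both accessions every light library lay below every dark library. The difference on the log2 scale was -0.61 in CYP and -0.85 in TUR, each with a two-sided exact permutation p of 0.1, the smallest that 3 against 3 libraries can give (0.167 adjusted over the 20 ratio comparisons made). MFP2, a multifunctional enzyme of the middle steps of β-oxidation, divided by KAT2, the thiolase of the last step, gave 1.12 ± 0.0855 in CYP light and 1.28 ± 0.0643 in CYP dark (SD, n = 3 each, exact permutation p = 0.1). In TUR the same ratio was 1.12 ± 0.0453 in light and 1.26 ± 0.118 in darkness (SD, n = 3 each, exact permutation p = 0.2).

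**Figure D3:**
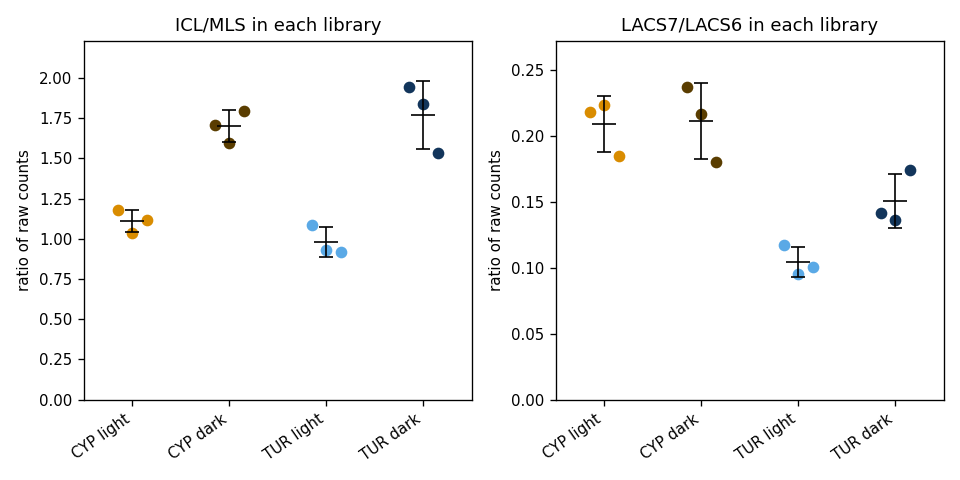
Ratio of raw counts within each library (vertical axes from 0) for ICL over MLS and for LACS7 over LACS6, with 1 point per library and the mean ± SD as bars, by group. ICL/MLS is lower in light than in darkness in both accessions, and LACS7/LACS6 is lowest in TUR light.

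Among the 10 genes, the light response of CYP differed from that of TUR in LACS7 alone by the test of the difference (CYP minus TUR). Its log2 difference was 0.56 (SE 0.13, adjusted p = 0.0271), where 2.24% of all models tested were called, 0.408% higher and 1.83% lower. LACS7 had 67.8, 72.9 and 70.1 CPM in CYP light and 71.6, 66.6 and 68.4 CPM in CYP dark, groups that overlapped, while in TUR they were apart. The call was lost without any 1 of 7 of the 12 libraries, with an adjusted p of 0.0546 to 0.0667, and was lost with limma on RPKM (counts scaled by gene length and library total). These 7 were TUR dark replicates 2 and 3, TUR light replicates 2 and 3, CYP dark replicate 2 and CYP light replicates 2 and 3. For the other acyl-CoA synthetase, LACS6, the difference was 0.045 with an interval of -0.27 to 0.36. LACS7 divided by LACS6 averaged 0.209 ± 0.0211 in CYP light and 0.211 ± 0.0287 in CYP dark (SD, n = 3 each, exact permutation p = 1). In TUR the ratio averaged 0.104 ± 0.0113 in light and 0.151 ± 0.0202 in darkness (SD, n = 3 each, exact permutation p = 0.1).

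The light responses of ICL differed between the accessions by 0.10 with a 95% interval of -0.21 to 0.41, and those of MLS by -0.13 with an interval of -0.42 to 0.15. PCK1 differed by -0.38 (SE 0.17) and SDP1 by 0.34 (SE 0.13), with unadjusted p of 0.0425 and 0.018. Neither passed the adjustment over all models (adjusted p = 0.344 and 0.236), so the call of PCK1 in CYP and not in TUR does not show that the responses differ. The other 5 genes had differences between -0.12 (ACX2) and 0.045 (LACS6).

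Between the accessions, PCK1 and LACS7 were higher and ACX2 was lower in CYP than in TUR, in darkness and in light alike. In darkness PCK1 had a log2 fold change of 1.00 (SE 0.12, adjusted p = 2.9e-06) and was 2.00-fold higher in CYP. In light it was 0.63 (SE 0.12, adjusted p = 0.000304). Every CYP library lay above every TUR library of the same treatment. ACX2 had a log2 fold change of -1.01 (SE 0.089, adjusted p = 4.83e-08) in darkness and -1.13 (SE 0.089, adjusted p = 7.11e-09) in light. Its levels were 272, 270.1 and 283 CPM in CYP light, against 603, 625 and 584 CPM in TUR light, and 229, 239 and 264 CPM in CYP dark, against 463, 522 and 492 CPM in TUR dark. CYP seeds thus held 0.456 of the TUR level in light and 0.496 in darkness. LACS7 was higher in CYP by 0.61 (SE 0.090, adjusted p = 2.53e-05) in darkness and by 1.17 (SE 0.091, adjusted p = 6.74e-09) in light on the log2 scale. On the deposited RPKM, LACS7 was lower in CYP in darkness and overlapped between the accessions in light, and SDP1 was lower in CYP in both treatments.

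SDP1 was called between the accessions in light, with 127, 115 and 115 CPM in CYP light, against 85.2, 76.9 and 81.3 CPM in TUR light. The groups were well apart, with a log2 fold change of 0.55 (SE 0.091, adjusted p = 5.65e-05). In darkness the value was 0.22 (SE 0.092, adjusted p = 0.0633), and 0.28 (adjusted p = 0.0326) without CYP dark replicate 2. This was 1 of 6 cases of leaving out a library, and the other 5 did not call SDP1. Of 11 alternative settings that kept all libraries of the comparison, 0 called it. PXA1, the ABC transporter that brings fatty acids or their CoA esters into the peroxisome, was lower in CYP by smaller amounts, with a log2 fold change of -0.27 (SE 0.099, adjusted p = 0.0366) in darkness and -0.26 (SE 0.098, adjusted p = 0.0343) in light. Its dark groups overlapped, since CYP dark replicate 3, at 161 CPM, lay above TUR dark replicate 3, at 158 CPM. KAT2 was higher in CYP by 0.23 (SE 0.087, adjusted p = 0.0367) in darkness and 0.22 (SE 0.087, adjusted p = 0.0387) in light. Leaving out 1 library ended the PXA1 call in 4 of 6 cases in darkness and 5 of 6 in light (adjusted p up to 0.170). The same ended the KAT2 call in 3 of 6 and 2 of 6 cases (adjusted p up to 0.136). With library totals alone in place of TMM, KAT2 was not called in either treatment. Of the 11 alternative edgeR, DESeq2 and limma settings that kept all libraries of the comparison, 2 called KAT2 in darkness and 5 in light. The adjusted p over these settings reached 0.158 in darkness and 0.552 in light.

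**Figure D4:**
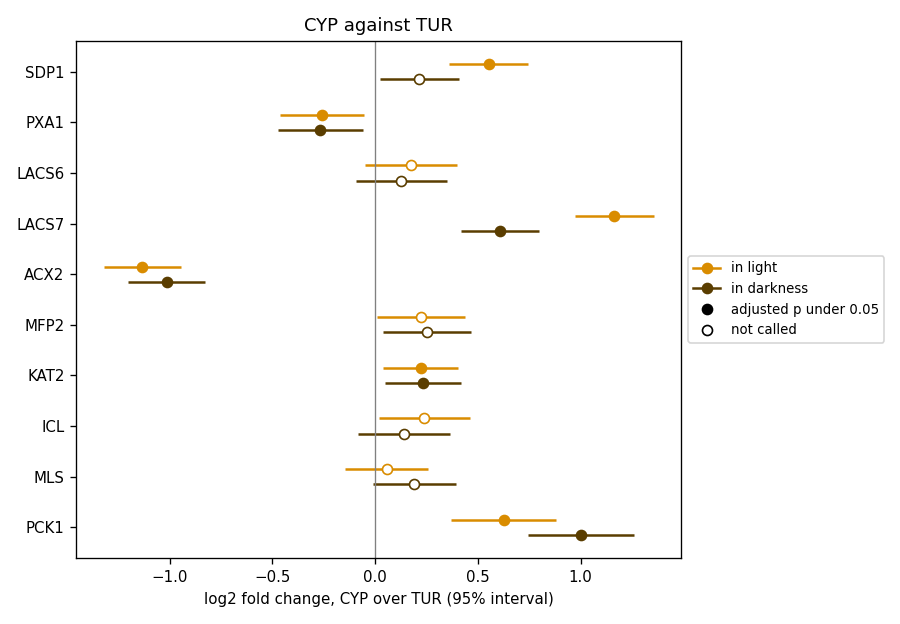
Log2 fold change of CYP over TUR (horizontal axis, 95% interval as a line) for each of the 10 genes in light and in darkness, with filled points for adjusted p under 0.05. ACX2 lies near -1 in both treatments, and PCK1 and LACS7 lie right of 0 in both.

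PXA1 ranged over 144 to 157 CPM in CYP light, 129 to 161 in CYP dark, 174 to 193 in TUR light and 158 to 183 in TUR dark. KAT2 averaged 1443 ± 37.8 CPM in CYP light, 1403 ± 80.4 in CYP dark, 1236 ± 30.7 in TUR light and 1193 ± 58.8 in TUR dark (SD, n = 3 each). LACS6 averaged 338 ± 36.1 CPM in CYP light, 329 ± 43.1 in CYP dark, 299.7 ± 9.17 in TUR light and 301 ± 22.4 in TUR dark (SD, n = 3 each). The light and dark libraries of LACS6 overlapped in both accessions. MFP2 averaged 1612 ± 159 CPM in CYP light, 1787 ± 87.0 in CYP dark, 1382 ± 71.3 in TUR light and 1498 ± 157 in TUR dark (SD, n = 3 each).

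In all, 5 of 10 genes were called between accessions in darkness (3 higher and 2 lower in CYP), where 44.5% of all models tested were called, 22.4% higher and 22.1% lower. In light 6 of 10 were called (4 higher and 2 lower), where 52.7% were called, 24.9% higher and 27.8% lower. The groups did not overlap for 7 of 10 genes in darkness and 8 of 10 in light, against 50.4% and 63.7% of all models. The shares called are near the background. The median size of the log2 fold change, signs aside, was 0.24 in darkness and 0.25 in light, against 0.33 and 0.38 over all models tested. ICL, MLS, LACS6 and MFP2 were not called in either treatment. The interval for ICL was -0.082 to 0.36 in darkness and 0.018 to 0.46 in light, and for MLS -0.0097 to 0.39 and -0.14 to 0.26. MFP2 was close to the threshold in both (0.25, adjusted p = 0.0516 in darkness, and 0.22, adjusted p = 0.0756 in light). It was called without TUR dark replicate 2 in darkness (0.33, adjusted p = 0.0347) and without CYP light replicate 2 in light (0.30, adjusted p = 0.0397). In each treatment this was 1 of 6 cases of leaving out a library, and the other 5 did not call MFP2. ICL in light was called without TUR light replicate 1 (0.35, adjusted p = 0.0167) or CYP light replicate 2 (0.33, adjusted p = 0.0278), and not in the other 4 of 6 cases. DESeq2 called ICL in light and MFP2 in both treatments. Of the 11 alternative settings that kept all libraries of the comparison, 2 called ICL in light. MFP2 was called by 1 of 11 in darkness and 2 of 11 in light. Markers of seed tissues differed between the accessions too. The 3 seed identity models tested were called higher in CYP in both treatments, with log2 fold changes of 1.91 in darkness and 1.504 in light for AA102G00009, 1.13 and 0.95 for AA32G00377, and 0.68 and 1.04 for OLEO1. NCED6 of the endosperm list was higher in CYP (0.68 in darkness and 1.92 in light), and GL2 (AA89G00009) of the seed coat list was lower (-1.15 and -0.91). Their part in the accession results was not tested. Reads of both accessions were counted on 1 set of gene models, so a difference in level and a difference in how well reads match the models cannot be told apart.

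The deposited RPKM of TUR libraries set a further limit on these genes. For CYP it equals the count divided by length and library total, and for TUR it does not. Deposited TUR values of ICL were 484 to 708 RPKM, which is 0.151 to 0.190 of the 2551 to 4692 RPKM that the counts give. For MLS the factor was 0.223 to 0.271 and for PCK1 0.362 to 0.422. It lay at 0.326 to 0.369 for KAT2, at 0.379 to 0.409 for MFP2 and at 0.6002 to 0.760 for ACX2. LACS6, with 1.00 to 1.08, was nearly equal on both scales, and PXA1, SDP1 and LACS7 had higher deposited values, with 1.35 to 1.501, 1.70 to 1.78 and 1.84 to 2.04. Over all models with a read the median factor was 1.97 to 2.14. The more abundant members were thus those with the lower factors. Within TUR, limma on the deposited RPKM called ICL (-0.44, adjusted p = 0.00949) and LACS7 (-0.40, adjusted p = 0.0321) lower in light, and did not call ACX2 (0.087, adjusted p = 0.358). The tests between accessions used the counts and not these values, and the sources used here do not state whether the TUR counts and RPKM come from the same reads. On the deposited scale 2 of the genes called between accessions had another order. SDP1 had 41.6 to 47.0 RPKM in CYP light, against 51.9 to 55.5 RPKM in TUR light, and 34.6 to 39.5 RPKM in CYP dark, against 55.2 to 61.1 RPKM in TUR dark. LACS7 had 12.8 to 13.6 RPKM in CYP light, against 11.4 to 13.6 RPKM in TUR light, and 12.0 to 13.2 RPKM in CYP dark, against 16.1 to 17.3 RPKM in TUR dark. SDP1 was thus lower in CYP in both treatments, and LACS7 overlapped in light and was lower in CYP in darkness. ACX2 stayed lower in CYP by a smaller margin, with 95.4 to 99.5 RPKM in CYP light, against 134 to 145 RPKM in TUR light, and 80.3 to 87.7 RPKM in CYP dark, against 127 to 135 RPKM in TUR dark. PXA1 stayed lower in CYP, and PCK1 and KAT2 stayed higher. ICL, MLS and MFP2, which were not called on counts, had every CYP library above every TUR library of the same treatment on that scale. These orders were not tested.

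Across the 12 libraries the genes did not vary as 1 group. The correlation of log2 CPM was 0.91 for PCK1 with MFP2, 0.89 for SDP1 with LACS7 and 0.86 for ACX2 with PXA1. It was -0.96 for LACS7 with ACX2 and -0.88 for PCK1 with ACX2. For ICL with MLS, successive enzymes of the glyoxylate cycle, it was -0.31. These values describe 12 libraries that share accession and treatment, and ACX2 and PXA1 were the genes that were lower in CYP.

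Further genes of the pathway were read from a list of 41 loci, of which 31 matched 39 models, and 36 of these were tested. In CYP light 3 rose, 4 fell and 29 were not called, and in TUR light 2 rose, 3 fell and 31 were not called. The shares called, 7 and 5 of 36, stand beside 25.0% and 18.4% of all models. The median log2 fold changes were -0.039 in CYP and -0.027 in TUR. For the difference between the light responses edgeR called 0 of 36. Before adjustment 4 had a p under 0.05, and DESeq2 called 2.

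Of 14 other β-oxidation models tested, 2 rose and 0 fell in light in each accession by edgeR. Before adjustment 4 models in CYP and 2 in TUR had a p under 0.05, and DESeq2 called 2 in each. KAT5 (AA732G00001), a thiolase gene known in Arabidopsis to give a cytosolic and a peroxisomal form, rose by 1.76 (SE 0.35) in CYP and by 3.38 (SE 0.32) in TUR on the log2 scale, with means of 5.02 CPM in CYP light, 1.44 in CYP dark, 10.6 in TUR light and 0.954 in TUR dark. AIM1 (AA102G00061), the second multifunctional protein, rose by 0.65 (SE 0.094) in CYP and by 0.31 (SE 0.094) in TUR. MFP2, which does the same steps, was not called in light in either accession. Between the accessions, ACX4 model AA215G00001, a short-chain acyl-CoA oxidase gene, was higher in CYP by 1.60 (SE 0.093) in darkness and 1.52 (SE 0.092) in light. The other ACX4 model, AA68G00037, had 0.061 (SE 0.10) and 0.16 (SE 0.10) and was not called. The 2 models match 1 Arabidopsis locus, and the sources used here do not state how reads were split between them. ACX1 model AA3G00151 was higher in CYP by 1.83 (SE 0.47) in darkness and 2.32 (SE 0.44) in light, from means of at most 1.62 CPM. The most counted ACX1 model, AA53G00284, averaged 69.4 CPM in CYP light, 71.9 in CYP dark, 60.5 in TUR light and 53.4 in TUR dark. It was higher in CYP by 0.43 (SE 0.094) in darkness, and its 0.20 (SE 0.092) in light was not called. ACN1 (AA26G00384), which activates acetate, was higher in CYP by 1.00 (SE 0.14) in darkness. KAT5 was lower in CYP in light, by -1.03 (SE 0.25).

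**Figure D5:**
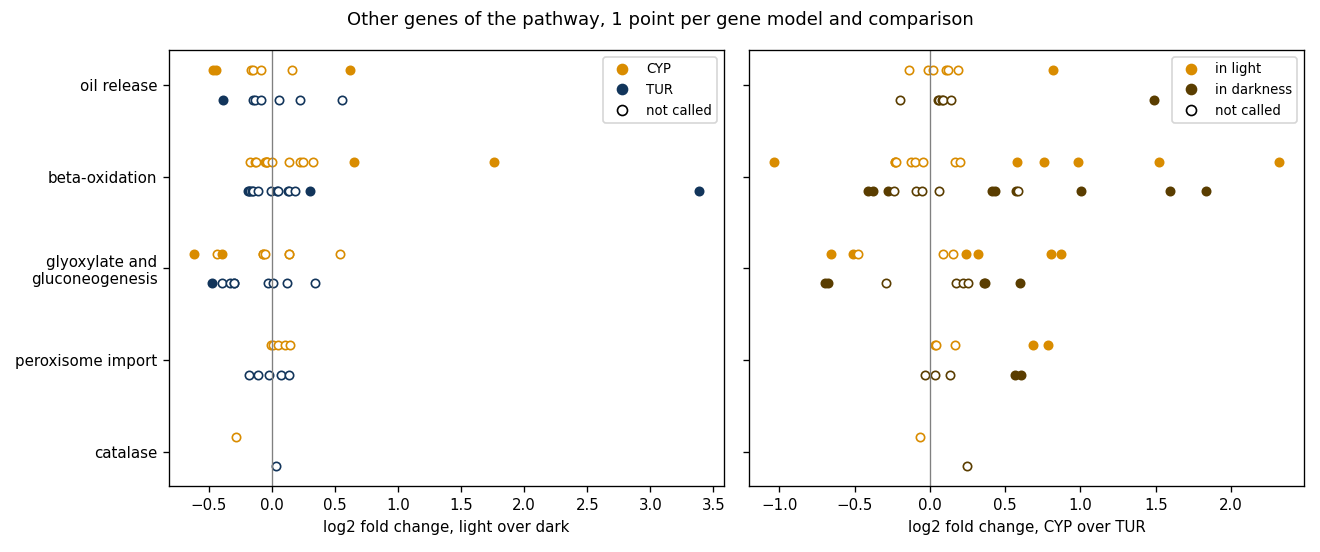
Log2 fold changes (horizontal axes) of 36 other models of the pathway, in 5 lists down the page, for light over dark on the left and CYP over TUR on the right, with 1 point per model and comparison and open points for models not called. Most light points lie near 0, and the point at 3.38 in TUR is KAT5.

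Of 9 other models of the glyoxylate cycle and gluconeogenesis, 2 fell and 0 rose in light in each accession. In CYP these were the 2 models of aconitase ACO3, which makes isocitrate, AA185G00004 (-0.61, SE 0.14) and AA185G00003 (-0.40, SE 0.13). In TUR they had -0.40 (adjusted p = 0.0518) and -0.30 (adjusted p = 0.126), and the falls there included that of the cytosolic fructose-1,6-bisphosphatase FBP (AA71G00002, -0.30, SE 0.10). Peroxisomal citrate synthase CSY3 (AA21G00066) and malate dehydrogenase PMDH1 (AA46G00165), partners of ICL and MLS in the cycle, had log2 fold changes of 0.14 and -0.073 in CYP light and 0.12 and -0.029 in TUR light, not called. PCK2 (AA4G00287), the second gene of the PCK1 family, had 0 reads in all 12 libraries, which allows up to 0.215 to 0.423 CPM per library. Between the accessions, the succinate and fumarate carrier SFC1 (AA19G00367) was higher in CYP by 0.60 (SE 0.14) in darkness and 0.87 (SE 0.14) in light, and FBP by 0.80 (SE 0.10) in light.

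Of 7 other models of oil release, 1 rose and 2 fell in CYP light and 1 fell in TUR light. Glycerol kinase GLI1 (AA31G00884), which takes up the glycerol of the oil, fell by 0.46 (SE 0.12) in CYP and by 0.39 (SE 0.12) in TUR. The oil body lipase OBL1 (AA26G00158) fell by 0.44 (SE 0.12) in CYP light, and its 0.23 (SE 0.13) in TUR light was not called. It was higher in CYP than in TUR by 1.49 (SE 0.13) in darkness and 0.82 (SE 0.13) in light. CGI58 (AA312G00005), an acyl hydrolase family gene, rose by 0.62 (SE 0.22) in CYP light, at the threshold (adjusted p = 0.049965). In TUR light it had 0.56 (SE 0.21, adjusted p = 0.0741) and was not called. The 5 peroxisome import genes had 0 calls in light by edgeR in either accession. Before adjustment 0 had a p under 0.05, and DESeq2 called 0. PEX5 (AA25G00161) and PEX7 (AA54G00339), the receptors that carry enzymes into the peroxisome, were higher in CYP than in TUR by 0.60 (SE 0.096) and 0.57 (SE 0.13) in darkness and by 0.78 (SE 0.096) and 0.68 (SE 0.13) in light. Catalase CAT2 (AA67G00019), which removes the hydrogen peroxide that acyl-CoA oxidases make, was not called in any comparison, with means of 4717 CPM in CYP light, 5741 in CYP dark, 4936 in TUR light and 4829 in TUR dark.

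The 6 models whose log2 CPM followed ICL most closely over the 12 libraries, among 12521 models of at least 5 CPM on average outside the 10 genes, had correlations of 0.94 to 0.97. They were AA9G00155, described as an S-ribonuclease binding protein (0.97), AA3G00058, a nucleoside diphosphate kinase family gene (0.96), AA16G00083, phototropin 1 (0.96), AA93G00145, adenosine kinase 2 (0.95), AA26G00103, a GTP-binding protein (0.94), and AA708G00001, the biotin carboxylase subunit of acetyl-CoA carboxylase (0.94). Phototropin 1 averaged 37.1 CPM in CYP light, 78.1 in CYP dark, 27.8 in TUR light and 77.0 in TUR dark. All 6 had lower means in light than in darkness in both accessions, a direction that their choice by likeness to ICL fixes.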

How the data were processed

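Poly(A) RNA libraries were made with the Lexogen SENSE mRNA kit, per the labels' protocols. Bowtie2 2.2.3, HTSeq 0.6.1, bcl2fastq 2.17.1, Trimmomatic and the build TAIR10 are listed without roles, per the submitters' processing notes, and strand use in counting was not stated there. The deposited table holds raw counts and RPKM per gene model, per the file headers. The counts were the basis of all levels and tests. The deposited RPKM of TUR libraries served in 1 alternative, chosen after seeing the data.

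Models with at least 1 CPM in at least 3 libraries (15671 of 18849 with a count) were fitted in edgeR 4.0.16 (R 4.3.3) with TMM scaling and the 4 group means over all 12 libraries, without a replicate block. The 5 comparisons were light against dark in each accession, the difference between these, and CYP against TUR in each treatment. The Benjamini-Hochberg adjustment ran over all models. Alternatives used DESeq2 1.42.0, limma 3.58.1 on quantile-normalized CPM and on RPKM from counts with pseudocounts of 1 and 5, other scalings and filters, and each library left out.

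The 10 genes, the pathway lists and the marker lists were chosen with earlier results of these data known. All members were named. Of other pathway genes, up to 3 called per list and comparison were named by size of change, and those named beyond that were chosen after their values were seen. Some results of the pathway and marker lists are not reported here. Ratios of member counts were compared by exact permutation. Floors of 3 counts cover counting error only, and intervals of fold changes come from the fit. Replicate numbers were not used as pairs in the main fit.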

Additional observations from a re-analysis of the deposited data

Results flagged for a closer look

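The light response of LACS7 differed between the accessions by the test of the difference itself, at 0.56 on the log2 scale (CYP minus TUR, adjusted p = 0.0271 in edgeR's quasi-likelihood test). LACS7 levels were lower in light in 3 of 3 TUR light libraries than in any TUR dark library, while the CYP light and CYP dark libraries overlapped. No other gene of the 10 was called for that difference. The call was lost without any 1 of 7 of the 12 libraries, with an adjusted p of 0.0546 to 0.0667.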

How the results depend on the processing

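Leaving out 1 library gave 0 to 1 of the 10 genes called for the difference between light responses, 3 to 5 for CYP against TUR in darkness, 4 to 7 in light, 2 to 3 for TUR light and 2 to 2 for CYP light. Over all models it gave 164 to 451 calls for that difference (351 with all libraries; lowest without CYP light replicate 1, highest without CYP dark replicate 3) and 1888 to 2963 for TUR light (2882 with all; lowest without TUR light replicate 3). In 10 of 12 libraries ICL ranks first, and quantile normalization gives equal ranks equal values, so ICL had a log2 fold change of 0 in CYP light there (1 of the 10 genes called) and -0.29 in TUR light (adjusted p = 0.153). With limma on log2(RPKM + 1) or log2(RPKM + 5) from counts, 0 genes were called for the difference. With the groups of the comparison alone, 3 were called in darkness. The cause was not tested. The replicate block ended the KAT2 calls between accessions (0.23, adjusted p = 0.0505 in darkness, and 0.22, adjusted p = 0.0520 in light) and no other call of the 10 genes. Deviations of same-numbered libraries correlated between -0.35 and 0.18. Differently numbered libraries were not compared, so these values cannot decide whether the numbers pair the samples.

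Signs turned only for changes near 0 that were not called. For KAT2 the difference was 0.0083 with DESeq2, 0.0085 with RLE, 0.0039 with upper-quartile scaling, 0.0031 without a filter and 0.021 with 5 CPM, and for MFP2 it was 0.00083 with 5 CPM. LACS6 in TUR light had 0.018 with library totals, 0.0075 with quantile normalization, and 0.019 and 0.018 on the RPKM + 1 and RPKM + 5 scales. MLS in CYP against TUR in light had -0.0067 with library totals, -0.089 with quantile normalization and -0.0065 on both RPKM scales. Without 1 library, LACS6 ran from -0.051 to 0.15 in CYP light, -0.090 to 0.037 in TUR light and -0.044 to 0.16 for the difference. PXA1 ran from -0.010 to 0.15, -0.032 to 0.10 and -0.067 to 0.11, and the differences of KAT2 and MFP2 from -0.048 to 0.043 and -0.12 to 0.082. Among single genes under settings that kept all libraries, 510 values kept direction and side of the threshold, 21 lost the call, 5 gained it and 14 changed sign.
For the difference, the fit on the groups of the comparison alone was not run, since it uses all 4 groups.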
